A study of Mus musculus with 82 samples.

Results

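Common myeloid progenitors (CMP) and megakaryocyte-erythroid progenitors (MEP) of mouse bone marrow were compared by mRNA-seq, with 2 CMP and 2 MEP libraries out of the 82 samples listed for the series. The 4 libraries were chosen by their labels alone, and every gene in their count tables was considered. All came from young wild-type C57BL/6J males aged 3 to 4 months, with no transgene, knockdown or treatment, and the labels place them in the same batch. The series as a whole profiled chromatin and expression of young and old hematopoietic stem cells (HSCs) and followed a short variant of Btaf1, a gene that encodes an ATPase acting on the TATA-binding protein. Libraries of granulocyte-macrophage progenitors (GMP, 2 libraries from mice of the same strain, sex and age group) and of young HSCs (4 libraries, sorted as lineage-negative, Sca-1+, c-Kit+, CD34-, Flk2-, CD150+ cells from pooled young males) are given beside CMPs and MEPs where they show how a gene behaves elsewhere. The sources used here do not give the antibodies that defined CMPs and MEPs, or say whether the 2 libraries of a population came from different mice, so p-values measure the spread between these libraries, which may be technical.

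CMPs sit at a branch of blood formation from which granulocytes and macrophages arise through GMPs, and red cells and platelets through MEPs. The erythroid branch is driven by the zinc-finger factors GATA1 and KLF1, which switch on heme synthesis, iron uptake, the red cell membrane and, last, the globins, while the myeloid branch is driven by PU.1 (the product of Spi1) and the C/EBP family. Megakaryocytes, which shed platelets, use GATA1 as well, together with FLI1 and RUNX1, and carry integrin αIIb (Itga2b) and platelet factor 4 (Pf4).

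The libraries were even in depth, with 35675043 to 36510850 reads on genes in CMPs and 35339966 to 35509939 in MEPs. At least 1 read was found for 23257 to 23405 genes in CMPs and for 21375 to 21453 in MEPs. Replicates resembled each other far more than they resembled the other population (Pearson r of log2 CPM, read counts scaled to library size, of 0.996 between the CMP libraries, 0.997 between the MEP libraries and 0.875 to 0.877 across, computed over genes, which are not independent replicates). Of 17696 genes tested with edgeR's quasi-likelihood test, 3179 were higher in MEPs and 5233 were lower, at a fold change above 1.5 and a Benjamini-Hochberg adjusted p below 0.05. These are 18.0% and 29.6% of the genes tested, so 47.5% of all genes were called in 1 direction or the other, and the CPM of the 2 populations did not overlap for 83.7% of all genes. The falls were larger than the rises. Of the lower genes, 2925 (55.9%) fell more than 4-fold and 1338 (25.6%) more than 16-fold, whereas 682 (21.5%) of the higher genes rose more than 4-fold and 232 (7.30%) more than 16-fold. In the MEP libraries 487 of the lower genes had no read, and in the CMP libraries 90 of the higher genes had none. Levels are CPM after TMM scaling, and they are relative: in sorted bulk samples fewer cells of a type and less RNA per cell cannot be told apart. Of 4 Y-linked genes listed, none was called between the populations, whereas Xist, the noncoding RNA of X inactivation, was called higher in MEPs at low levels, with 0.452 and 0.325 CPM in CMPs and 1.81 and 2.48 CPM in MEPs (log2 fold change 2.46, adjusted p = 0.000181).

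**Figure D1:**
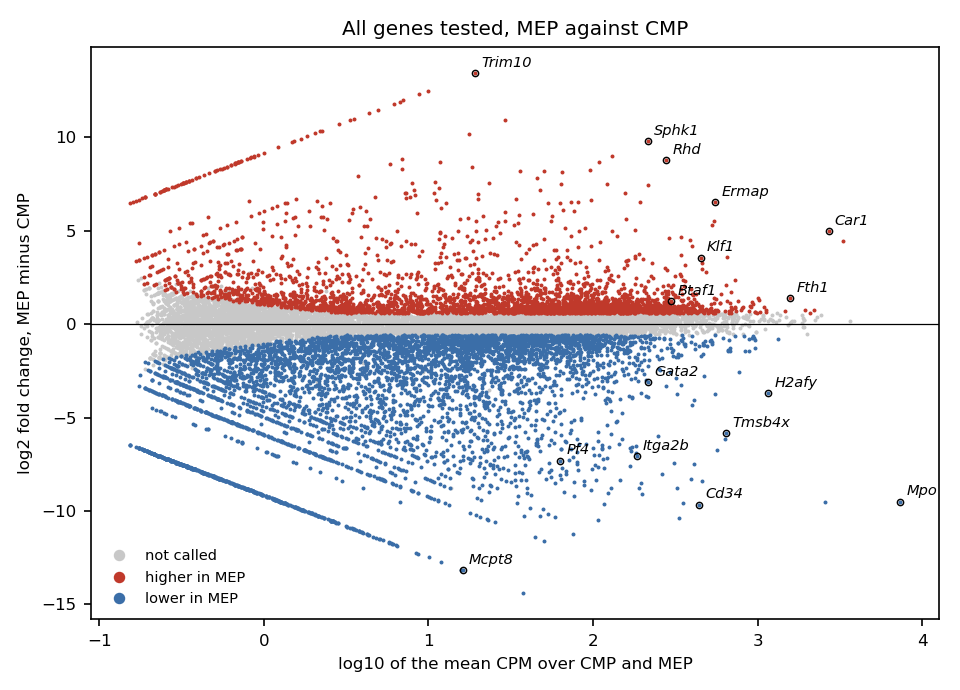
Each point is 1 of 17696 genes tested, with the log10 of its mean CPM over the CMP and MEP libraries on the x axis and the log2 fold change, MEP minus CMP, on the y axis. Red genes were higher in MEPs (3179), blue genes lower (5233) and grey genes not called. The straight lines of points at the edges are genes without a read, or with very few, in 1 population, whose fitted fold change depends on the prior count, and Mpo lies at the far right among the falls.

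The markers went with the labels on the erythroid side. Klf1, which encodes the master factor of red cell gene expression (ENSMUSG00000054191.8, chromosome 8, 84901928 to 84905291, plus strand, mm10), was at 72.1 and 69.5 CPM in CMPs and 841 and 816 CPM in MEPs (log2 fold change 3.55, SE 0.05, edgeR adjusted p = 2.16e-14). Car1, the carbonic anhydrase of early erythroid cells (ENSMUSG00000027556.15, chromosome 3, 14766216 to 14808368, minus strand), rose from 168 and 166 CPM to 4986 and 5440.1 CPM. Ermap, an immunoglobulin-like protein of the erythroid membrane, rose from 12.96 and 10.4 CPM to 1059 and 1115 CPM (log2 fold change 6.54, SE 0.09). All 3 were higher in each MEP library than in either CMP library, and such a lack of overlap held for 83.7% of all genes tested. They were lower still in GMPs. There Klf1 stood at 1.03 and 2.86 CPM, Car1 at 4.55 and 5.12 CPM and Ermap at 0.936 and 1.196 CPM. The megakaryocyte markers did not follow. Of Itga2b, Pf4, Gp9, Gp1bb and Vwf, the 4 that could be tested were all lower in MEPs than in CMPs, against 29.6% of all genes tested. Gp1bb had no read in MEPs and 21 reads in CMPs. Gp1bb overlaps exons of Sept5 and Gm49601 on the same strand, where shared reads can be lost in counting, so its count is uncertain. The libraries labelled MEP therefore held the erythroid markers of their name at high levels and the tested megakaryocyte markers at lower levels than CMPs.

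**Figure D2:**
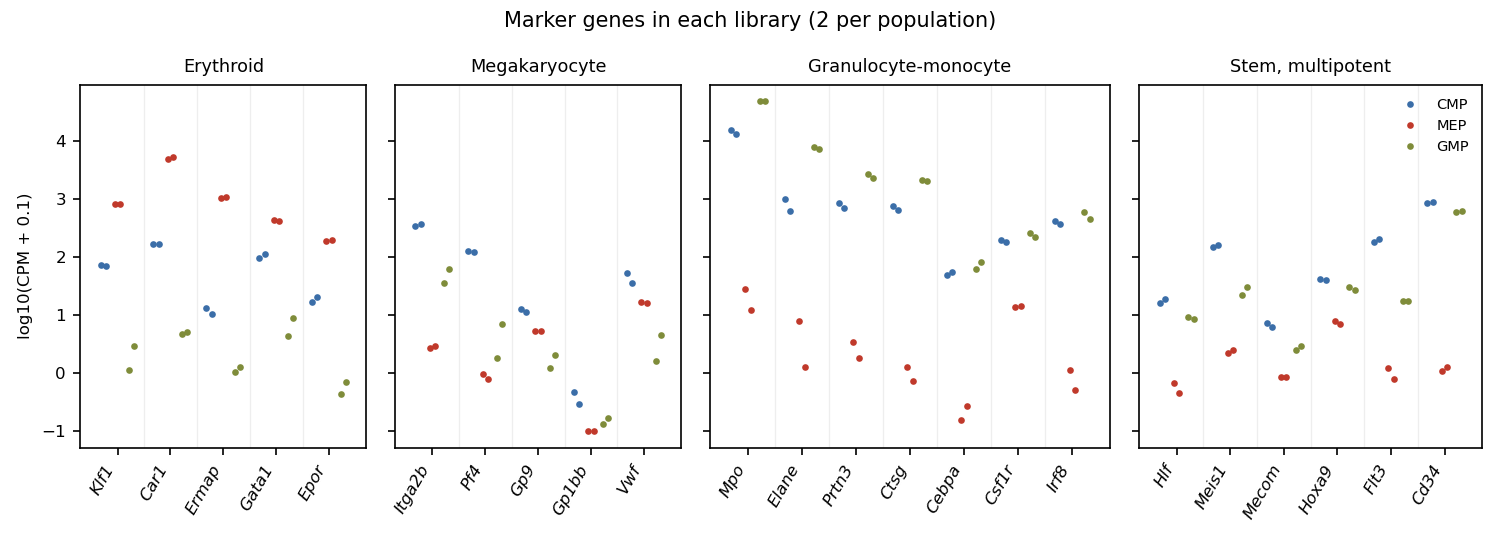
Dots give log10(CPM + 0.1) of marker genes in each of 2 CMP (blue), 2 MEP (red) and 2 GMP (olive) libraries, in 4 panels by the cell type that the genes mark. MEP libraries are highest for the 5 erythroid markers and lowest or near the bottom for the granulocyte-monocyte, stem cell and multipotent markers, and their Itga2b and Pf4 lie below those of CMPs.

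Promoter sequences are shown for 5 genes that rose and 4 that fell, chosen after their values were seen as markers or leading members of their lists, because the GATA and KLF factors that bind such sequences were themselves among the genes that changed. They are RefSeq promoters of build GRCm38.p6, from 250 bases before to 50 bases after the gene's start, printed 5′ to 3′ on the gene's strand. Capitals mark matches on either strand to a GATA word (GATA with A or T before it and A or G after it) or to the CACC-box word CCNCNCCC, of which neighbouring matches may overlap and merge. The first 5 belong to Klf1 (chr8:84901732-84902031, plus strand), Ermap (chr4:119189946-119190245, minus strand), Epor (chr9:21963527-21963826, minus strand), Rhd (chr4:134864286-134864585, plus strand) and Gata1 (chrX:7967861-7968160, minus strand).
Klf1: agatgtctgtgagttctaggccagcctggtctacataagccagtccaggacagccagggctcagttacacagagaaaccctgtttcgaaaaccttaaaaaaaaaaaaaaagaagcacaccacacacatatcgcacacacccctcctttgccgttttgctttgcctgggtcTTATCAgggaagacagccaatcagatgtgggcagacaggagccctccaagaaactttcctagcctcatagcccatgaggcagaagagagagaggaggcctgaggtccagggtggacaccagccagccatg
Ermap: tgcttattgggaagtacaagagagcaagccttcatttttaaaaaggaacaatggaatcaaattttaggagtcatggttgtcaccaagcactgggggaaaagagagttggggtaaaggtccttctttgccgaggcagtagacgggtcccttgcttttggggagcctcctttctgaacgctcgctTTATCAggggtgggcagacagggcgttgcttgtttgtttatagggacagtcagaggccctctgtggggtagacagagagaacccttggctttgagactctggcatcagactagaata
Epor: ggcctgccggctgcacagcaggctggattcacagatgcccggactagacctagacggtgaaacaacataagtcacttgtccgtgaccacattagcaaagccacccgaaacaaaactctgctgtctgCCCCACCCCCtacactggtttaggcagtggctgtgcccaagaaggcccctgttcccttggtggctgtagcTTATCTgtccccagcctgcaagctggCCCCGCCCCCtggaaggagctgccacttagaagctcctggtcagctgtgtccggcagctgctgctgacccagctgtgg
Rhd: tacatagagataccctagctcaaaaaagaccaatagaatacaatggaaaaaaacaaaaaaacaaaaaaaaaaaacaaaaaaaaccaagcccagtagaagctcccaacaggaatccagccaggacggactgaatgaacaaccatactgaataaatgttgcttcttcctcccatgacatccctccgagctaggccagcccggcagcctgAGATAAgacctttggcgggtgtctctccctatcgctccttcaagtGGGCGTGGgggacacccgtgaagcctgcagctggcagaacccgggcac
Gata1: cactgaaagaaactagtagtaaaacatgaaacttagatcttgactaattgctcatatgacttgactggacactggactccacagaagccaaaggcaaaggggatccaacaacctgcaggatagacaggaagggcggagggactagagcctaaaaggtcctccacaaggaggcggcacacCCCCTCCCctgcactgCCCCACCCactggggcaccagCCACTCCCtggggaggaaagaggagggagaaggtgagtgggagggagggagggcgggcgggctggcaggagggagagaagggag
Gata1 held no GATA word in this window and 3 CACC-box words. The other 4 held 1 GATA word each, which began 80 bases before the start in Klf1, 67 before it in Ermap, 54 before it in Epor and 43 before it in Rhd. The 4 genes that fell are Cd34 (chr1:194938571-194938870, plus strand), Itga2b (chr11:102469834-102470133, minus strand), Mpo (chr11:87793534-87793833, plus strand) and Pf4 (chr5:90772185-90772484, plus strand).
Cd34: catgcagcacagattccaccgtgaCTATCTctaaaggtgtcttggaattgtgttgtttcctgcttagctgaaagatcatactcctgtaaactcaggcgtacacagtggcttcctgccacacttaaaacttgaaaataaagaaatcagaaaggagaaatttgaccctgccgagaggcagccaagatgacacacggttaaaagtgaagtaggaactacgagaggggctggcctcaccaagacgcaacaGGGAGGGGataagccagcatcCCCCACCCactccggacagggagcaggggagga
Itga2b: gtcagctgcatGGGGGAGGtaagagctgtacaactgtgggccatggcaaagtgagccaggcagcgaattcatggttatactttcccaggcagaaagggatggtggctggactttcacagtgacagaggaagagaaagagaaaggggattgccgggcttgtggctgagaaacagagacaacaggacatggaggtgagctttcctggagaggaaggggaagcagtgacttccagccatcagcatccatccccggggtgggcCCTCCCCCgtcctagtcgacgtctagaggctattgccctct
Mpo: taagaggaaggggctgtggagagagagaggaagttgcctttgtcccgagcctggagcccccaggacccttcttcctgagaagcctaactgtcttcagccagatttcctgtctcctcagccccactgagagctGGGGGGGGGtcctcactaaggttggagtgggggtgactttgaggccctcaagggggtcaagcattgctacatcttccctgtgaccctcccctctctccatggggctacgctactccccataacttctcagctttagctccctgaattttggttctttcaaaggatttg
Pf4: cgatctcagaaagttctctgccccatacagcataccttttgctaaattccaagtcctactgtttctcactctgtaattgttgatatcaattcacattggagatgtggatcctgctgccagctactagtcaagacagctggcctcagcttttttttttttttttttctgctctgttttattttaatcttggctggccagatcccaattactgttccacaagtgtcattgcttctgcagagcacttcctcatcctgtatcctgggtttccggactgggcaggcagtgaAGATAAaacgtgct
Of these, Cd34 held 1 GATA word, 226 bases before the start, Pf4 held 1, 36 bases after it, and Itga2b and Mpo held none in this window. Over all genes with 1 promoter entry, a GATA word was found in 36.4% of the promoters of genes that rose more than 16-fold in MEPs (43 of 118), in 19.4% of all that rose (322 of 1660), in 20.5% of those that fell (564 of 2748), in 21.6% of those that fell more than 16-fold (159 of 735) and in 18.8% of genes not called (794 of 4233). Among all 22856 promoters in the table, most of them of genes not tested here or outside these classes, the share was 30.7%. The CACC-box word was found in 64.4% of the promoters of genes that rose more than 16-fold and in 65.3% of those of genes not called, and in 48.2% of all promoters. The word GAGGAAGT, which PU.1 binds, was found in 7.76% of the promoters of genes that fell more than 16-fold, in 1.69% of those that rose more than 16-fold, in 2.74% of those not called and in 3.33% of all. Of the printed promoters, only Mpo (224 bases before the start) and Pf4 (10 before it, other strand) held this word, which is not capitalised there. The C/EBP words TTGCGCAA and TTGCGTAA were found in 0.272% of the promoters of genes that fell more than 16-fold, in 0.732% of those not called and in 0.363% of all. A match is a description of the letters and not a site shown to be used. Of the 8412 genes called, 5531 had an entry, and Car1, Car2 and Spi1 were not matched.

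Transcription factors of the erythroid and megakaryocyte lineages split between the populations. Of 22 listed and tested, 11 were higher in MEPs, 8 lower and 3 not called, against a background of 18.0% higher and 29.6% lower. Beside Klf1, Gfi1b, a repressor needed for red cells and platelets, rose from 63.1 and 71.3 CPM to 480.1 and 504 CPM (log2 fold change 2.87, SE 0.06). Gata1 rose from 96.3 and 115 CPM to 442 and 416 CPM (log2 fold change 2.02, SE 0.08, adjusted p = 4.49e-09), and was at 4.37 and 8.77 CPM in GMPs. Klf3, a KLF1 target and repressor, and E2f4, a cell cycle factor needed for red cell production, rose by 2.37 and 1.86 on the log2 scale, Tal1 by 1.59 and Bcl11a, the repressor of embryonic globins, by 1.08. The GATA factor of earlier progenitors moved the other way. Gata2 was at 349 and 423 CPM in CMPs and 40.4 and 49.9 CPM in MEPs (log2 fold change -3.10, SE 0.14), so that per kb of exon Gata2 stood above Gata1 in CMPs (71.5 and 43.4 CPM per kb) and below it in MEPs (8.37 and 176 CPM per kb). Fli1, the ETS factor of megakaryocytes, fell from 159.7 and 171 CPM to 5.14 and 4.204 CPM (log2 fold change -5.14, SE 0.10). Runx1 fell by 2.22, Nfe2 by 1.70, Lyl1 by 1.39 and Myb by 0.95 on the log2 scale. Lmo2 and Ldb1, the scaffold of the GATA1 and TAL1 complex, had log2 fold changes of -0.56 and -0.33 and did not pass the fold threshold, which Lmo2 passed without CMP replicate 1 (-0.59).

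Genes of the red cell membrane and the carbonic anhydrases rose nearly throughout: 20 of 22 tested were higher in MEPs, 1 was lower and 1 was not called. That compares with 18.0% higher and 29.6% lower over all genes tested. The median log2 fold change was 4.83, against -0.05 over all genes tested. Rhd, which encodes the Rh antigen, was at 1.49 and 1.03 CPM in CMPs and 542 and 569 CPM in MEPs, and Rhag, its membrane partner, at 2.66 and 2.25 CPM and 439 and 419 CPM. Both were below 3 CPM in each CMP library and above 400 CPM in each MEP library. Of the genes of the spectrin skeleton that holds the red cell's shape, several rose steeply, with log2 fold changes of 6.55 for Sptb (beta spectrin), 6.50 for Ank1 (ankyrin), 7.57 for Epb42 (protein 4.2), 7.01 for Add2 (beta adducin) and 6.28 for Dmtn (dematin), whereas Epb41 (protein 4.1) rose by 1.02. The water channel gene Aqp1 rose from 98.8 and 104 CPM to 1191 and 1219 CPM. Slc4a1, the anion exchanger of mature red cells, remained low at 0 and 0.162 CPM in CMPs and 2.51 and 0.876 CPM in MEPs, with 6 and 116 reads over the group. The exceptions were the glucose transporter gene Slc2a1, which fell from 26.5 and 29.2 CPM to 0.234 and 0.701 CPM, and the tropomodulin gene Tmod1, which was not called (31.2 and 31.03 CPM and 28.5 and 27.2 CPM).

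Carbonic anhydrase transcripts, whose enzymes interconvert carbon dioxide and bicarbonate, led the MEP libraries. Car2 was at 268 and 311 CPM in CMPs and 6245 and 6399 CPM in MEPs (log2 fold change 4.45, SE 0.07, adjusted p = 4.31e-12), and Car1 had a log2 fold change of 4.96 (SE 0.05). In CPM per kb of exon, Car1 ranked 1 and Car2 ranked 2 among 12440 protein-coding genes in MEPs, with means of 4177 and 2610 CPM per kb, whereas they ranked 291 and 341 in CMPs. The myeloperoxidase gene Mpo ranked 1 in CMPs, with 4279 CPM per kb, and 6188 in MEPs, with 5.90 CPM per kb. Klf1 moved from rank 1188 in CMPs to 36 in MEPs.

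**Figure D3:**
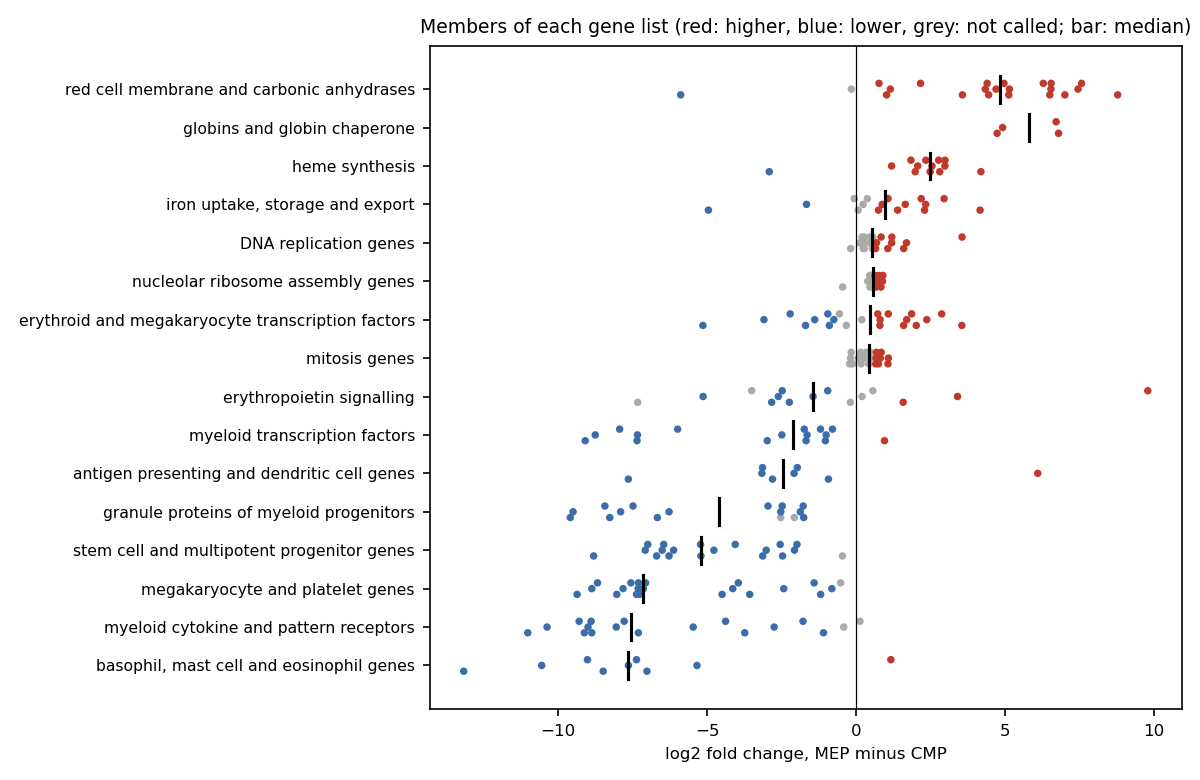
Each dot is a tested member of 1 of 16 gene lists, at its log2 fold change, MEP minus CMP, on the x axis, coloured red where higher in MEPs, blue where lower and grey where not called, with a black bar at the list's median. The red cell membrane, globin, heme and iron lists lie to the right of 0, the megakaryocyte, stem cell, granule, receptor and basophil lists to the left, and the replication, mitosis and nucleolar lists close to 0 on its right.

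Heme synthesis, the pathway that builds the iron-porphyrin of hemoglobin in the mitochondrion and cytosol, was higher in MEPs for most of its genes. Of 13 genes tested, 12 were higher and 1 was lower, against 18.0% and 29.6% of all genes tested. Their median log2 fold change was 2.48. The largest rise was that of Cpox, coproporphyrinogen oxidase, from 41.4 and 40.9 CPM to 776 and 726 CPM (log2 fold change 4.19, SE 0.06, adjusted p = 1.16e-14). Fech, which inserts the iron, rose from 64.3 and 58.9 CPM to 480.2 and 492 CPM, without overlap, as for 83.7% of all genes tested. Alad, Uros, Urod and Ppox, further enzymes of the pathway, rose by 2.55, 2.34, 1.98 and 1.19 on the log2 scale, and the mitochondrial transporters Slc25a38, Tmem14c and Abcb10 by 2.81, 2.07 and 1.84. The rate-limiting first step is catalysed by a housekeeping enzyme, Alas1, and an erythroid enzyme, Alas2, and these differed from the rest. Alas1 fell from 303 and 297 CPM to 40.5 and 38.98 CPM (log2 fold change -2.92, SE 0.06, adjusted p = 2.88e-13), and stood at 1119 and 1254 CPM in GMPs. Alas2 rose, but from 0.266 and 0.569 CPM to no more than 3.91 and 2.72 CPM, so that in MEPs its mean was 1.38 CPM per kb against 6.44 CPM per kb for Alas1.

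Of 16 genes of iron uptake, storage and export tested, 10 were higher in MEPs, 2 lower and 4 not called, against 18.0% higher and 29.6% lower over all genes tested. The transferrin receptor gene Tfrc rose from 106 and 104 CPM to 833 and 788 CPM (log2 fold change 2.95, SE 0.05), the ferrireductase gene Steap3 by 2.33, the endosomal iron transporter gene Slc11a2 by 2.18 and Tfr2 by 1.65 on the log2 scale. The iron exporter gene Slc40a1 (ferroportin) had the largest rise of the list, from 10.7 and 9.91 CPM to 183 and 186 CPM. The ferritin chains rose less, Fth1 from 844 and 884 CPM to 2242 and 2297 CPM and Ftl1 from 837 and 847 CPM to 1408 and 1424 CPM. Ncoa4, whose product delivers ferritin to the lysosome, fell from 159.7 and 161 CPM to 54.9 and 46.1 CPM, and Hmox1, which degrades heme, from 2.44 and 5.04 CPM to 0.234 and 0 CPM. Slc25a37, the mitochondrial iron importer called mitoferrin 1, was not called (21.8 and 22.4 CPM and 22.1 and 20.2 CPM).

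**Figure D4:**
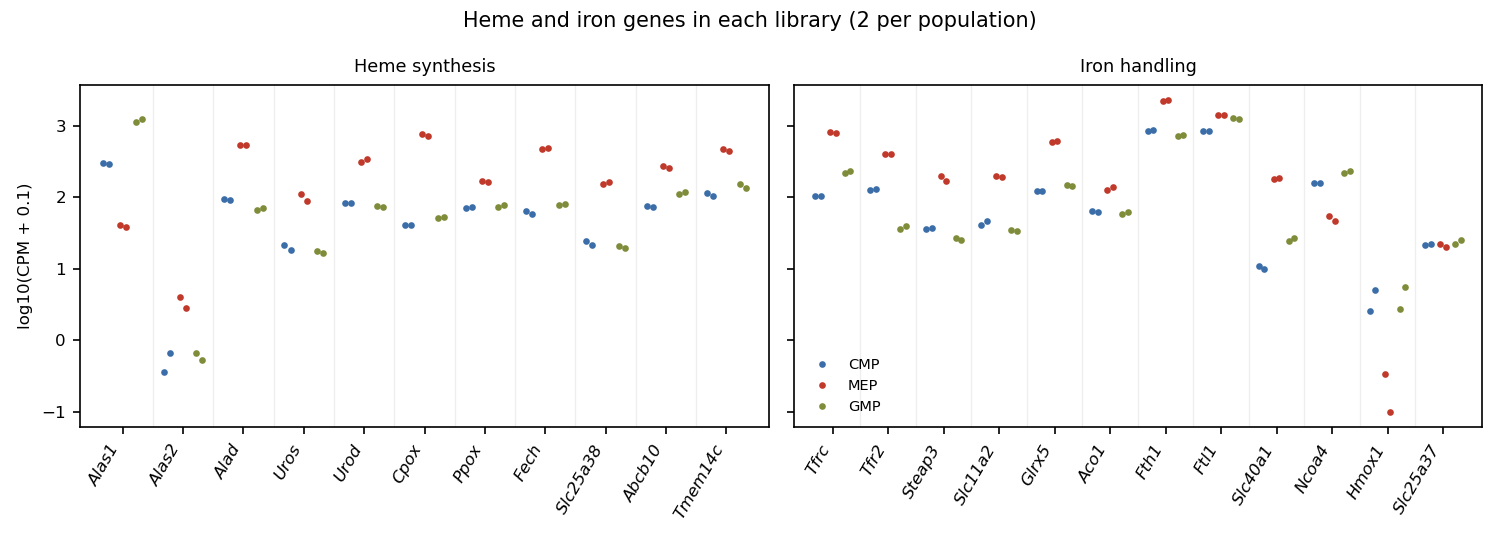
Dots give log10(CPM + 0.1) of 11 heme synthesis genes (left) and 12 iron genes (right) in each of 2 CMP (blue), 2 MEP (red) and 2 GMP (olive) libraries. MEP libraries are highest for all heme genes shown except Alas1, where they are lowest, and Ncoa4 and Hmox1 are lowest in MEPs on the right.

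Globin transcripts were present but scarce. All 4 adult globin genes that could be tested were higher in MEPs, against 18.0% of all genes tested. Hba-a1 was at 1.04 and 0.244 CPM in CMPs and 70.9 and 64.8 CPM in MEPs, and Hbb-bs at 1.59 and 0.217 CPM and 29.1 and 19.5 CPM. The 2 alpha genes, and likewise the 2 beta genes, are near-identical copies between which reads can be divided or lost, so their separate values are uncertain. The call of Hbb-bs was lost without MEP replicate 1 (adjusted p = 0.211), without MEP replicate 2 (adjusted p = 0.176) and with no filter on low counts (adjusted p = 0.0596). The embryonic genes Hba-x, Hbb-bh1 and Hbb-y were not tested, with 0 to 2 reads per population. The 7 globin genes together made up 119 to 141 CPM in MEPs and 1.41 to 3.45 CPM in CMPs, and leaving them out of the count table gave 3178 higher and 5228 lower genes.

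Erythropoietin (EPO) is the hormone that keeps erythroid progenitors alive through its receptor, JAK2 and STAT5. The receptor gene Epor rose from 16.8 and 20.6 CPM to 195 and 202 CPM (log2 fold change 3.40, SE 0.09, adjusted p = 7.43e-12) and stood at 0.343 and 0.598 CPM in GMPs. Jak2, Stat5a and Stat5b, which relay the signal, had log2 fold changes of 0.56, 0.20 and -0.19 and did not pass the fold threshold. Of the listed genes that STAT5 induces, Cish, Socs2, Bcl2l1, Pim1 and Socs3 were not raised with the receptor. Cish fell from 5.74 and 7.64 CPM to 1.402 and 0.467 CPM, Socs2 from 1.17 and 0.650 CPM to 0.292 and 0 CPM and Bcl2l1, which encodes the survival factor BCL-XL, from 28.9 and 35.7 CPM to 11.4 and 12.3 CPM. Pim1 and Socs3 were not called, and their CMP libraries lay far apart, with Pim1 at 17.8 and 67.9 CPM and Socs3 at 3.24 and 35.5 CPM, against 4.88 and 2.66 CPM and 0.117 and 0.117 CPM in MEPs. With DESeq2 both were called lower on all 4 libraries (log2 fold changes of -3.50 and -7.37, DESeq2 adjusted p = 0.000411 and 3.39e-06). Either gene was also called lower once 1 CMP library was left out (Pim1 at -4.17 without replicate 1 and -2.25 without replicate 2, Socs3 at -8.20 and -4.76), whereas Socs2 lost its call (adjusted p = 0.257 without CMP replicate 1 and 0.0811 without CMP replicate 2), and Jak2 passed the fold threshold without CMP replicate 1 (0.59) or MEP replicate 1 (0.59). In all, 3 of 15 genes tested were higher, 7 lower and 5 not called, against 18.0% higher and 29.6% lower over all genes tested, and DESeq2 called 9 lower. The third riser after Epor and the adaptor gene Gab1 was Sphk1, sphingosine kinase, which went from 0.691 and 0.271 CPM to 403 and 458 CPM (log2 fold change 9.79, SE 0.17). The antisense gene Gm29292 overlaps an exon of Sphk1, and as the strand setting of the counting is not given, reads of the 2 genes cannot be told apart.

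Megakaryocyte and platelet genes were lower in MEPs in nearly every case. Of 24 listed, 21 were tested, 20 were lower, 1 was not called and none was higher, against 29.6% lower among all genes tested. Itga2b fell from 353 and 377 CPM to 2.63 and 2.803 CPM (log2 fold change -7.07, SE 0.08, adjusted p = 6.94e-15), and Pf4, a chemokine of platelet granules, from 129 and 121 CPM to 0.876 and 0.701 CPM. Both were above 100 CPM in each CMP library and below 3 CPM in each MEP library. Itgb3, the partner chain of Itga2b, Selp (P-selectin), Plek (pleckstrin) and Treml1 had log2 fold changes of -7.82, -7.37, -7.15 and -7.27, the last from 4 reads in MEPs, a CMP to MEP ratio of 164 (95% counting interval 44.9 to 1355). Thbs1, Ppbp and Clec1b had no read in MEPs and were at least 26.3-fold, 18.7-fold and 10.4-fold lower there, taking 3 fragments over the group as the floor. The tested genes of the von Willebrand receptor complex and its ligand had the smallest differences of the tested members, whereas Gp1bb of the same complex, without a read in MEPs, was too low to test and at least 3.21-fold lower. Gp5 was at 51.9 and 64.1 CPM in CMPs and 33.1 and 47.7 CPM in MEPs and was not called, Gp1ba at 14.8 and 14.2 CPM and 7.01 and 9.52 CPM, Gp9 at 12.8 and 11.3 CPM and 5.35 and 5.23 CPM and Vwf at 52.7 and 36.1 CPM and 17.1 and 16.3 CPM. Gp5 was called lower without CMP replicate 1 (log2 fold change -0.66) or without MEP replicate 2 (-0.80). The median log2 fold change of the list was -7.15, or -4.50 with genes without a read placed at their bound.

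Genes of stem cells and multipotent progenitors fell as well. Of 20 listed, 19 were tested, 18 were lower, 1 was not called and none was higher, against 29.6% lower among all genes tested. The list's median log2 fold change was -5.21 (-4.78 with bounds). Meis1, a homeobox partner of the HOXA factors, went from 153 and 162 CPM to 2.13 and 2.36 CPM (log2 fold change -6.13, SE 0.10), and Hoxa9 from 41.7 and 40.6 CPM to 7.97 and 6.89 CPM. Hlf and Mecom, transcription factor genes of HSCs, were at 16.1 and 19.04 CPM and 7.36 and 6.07 CPM in CMPs, at 0.584 and 0.350 CPM and 0.759 and 0.759 CPM in MEPs, and at 515 to 552 CPM and 282 to 307 CPM across the 4 young HSC libraries. Angpt1, angiopoietin 1, fell from 272 and 309 CPM to 9.201 and 12 CPM, Sox4 by 4.06 and Adgrg1 by 2.55 on the log2 scale. The RNA-binding protein gene Msi2 was not called (25.6 and 27.4 CPM and 18.99 and 19.6 CPM).

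Several surface proteins by which bone marrow progenitors are conventionally sorted differed strongly in their transcripts, and a gene used in a sort is no finding between the sorted populations. Cd34, a sialomucin by which CMPs and MEPs are commonly separated, was at 869 and 884 CPM in CMPs and 0.993 and 1.17 CPM in MEPs (log2 fold change -9.66, SE 0.08). The Fc receptor genes Fcgr3 and Fcgr2b were at 42.7 and 32.3 and 48.8 and 45.8 CPM in CMPs, at 0.175 and 0.350 and 0.175 and 0.0584 CPM in MEPs and at 372 and 359.7 and 119 and 113 CPM in GMPs. Kit, which encodes the stem cell factor receptor c-Kit, stayed high in MEPs at 550.3 and 601 CPM against 880.04 and 883 CPM in CMPs. Eng, endoglin, was the 1 gene of the 11 tested that was higher in MEPs (61.2 and 56.4 CPM and 118 and 110.4 CPM). Another 9 were lower, against 18.0% higher and 29.6% lower over all genes tested. Kit fell below the fold threshold without MEP replicate 1 (log2 fold change -0.54). Cd48 fell from 225 and 230.3 CPM to 16.3 and 12.9 CPM, and Flt3 from 183 and 208 CPM to 1.11 and 0.701 CPM.

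Myeloid genes were at low levels in MEPs. Of 16 genes for granule proteins of myeloid progenitors, 14 were lower and 2 were not called, against 29.6% lower over all genes tested. Their summed level was 16538 to 19889.6 CPM in CMPs, 197 to 226 CPM in MEPs and 64365 to 65719 CPM in GMPs. In MEPs, Srgn, the proteoglycan core protein of many blood cells, made up 141 and 153 CPM of that sum. Mpo, which encodes the peroxidase of primary granules, was at 15934 and 13371 CPM in CMPs, 28.2 and 12.2 CPM in MEPs and 49688 and 49297 CPM in GMPs (MEP against CMP, log2 fold change -9.50, SE 0.65, adjusted p = 0.0057). Elane, neutrophil elastase, was at 994 and 639 CPM in CMPs and 7.92 and 1.17 CPM in MEPs, and Prtn3, proteinase 3, at 859.9 and 702 CPM and 3.33 and 1.72 CPM. In each of these genes the MEP library of replicate 1 held more transcript than that of replicate 2, and CMPs lay far above both. Ctsg, cathepsin G, fell from 763 and 644 CPM to 1.17 and 0.642 CPM. Among the genes of later granules and neutrophil cytosol, Ltf, Camp, S100a8 and S100a9 fell by 2.53, 2.48, 1.87 and 1.76 on the log2 scale, S100a9 not past the test with GMPs in the fit (adjusted p = 0.111), whereas Ngp and Chil3 were not called (16.3 and 18.7 and 6.91 and 6.04 CPM in CMPs, 5.46 and 0.584 and 2.72 and 0.350 CPM in MEPs), and the same MEP library was the higher for both. Without MEP replicate 1 both were called lower (log2 fold changes of -4.89 and -4.19), as they were without MEP replicate 2 (-1.68 and -1.25), and Ngp also without CMP replicate 1 (-2.63). With limma-voom both were called lower on all 4 libraries (-3.27 and -2.70, adjusted p = 0.0354 and 0.00644). Elane lost its call without MEP replicate 1 (adjusted p = 0.0708) or MEP replicate 2 (adjusted p = 0.08) and with limma-voom (adjusted p = 0.0606). The antisense gene Gm11505 lies within Mpo, and its fall, from 5547 and 4699.9 CPM to 9.96 and 3.91 CPM, cannot be told apart from that of Mpo without the strand.

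Myeloid transcription factors moved with the granule genes. Of 20 listed, 16 were tested, 15 were lower and 1 was higher, against 29.6% and 18.0% of all genes tested. Spi1 was at 153 and 164 CPM in CMPs, 1.11 and 0.817 CPM in MEPs and 246 and 232 CPM in GMPs (MEP against CMP, log2 fold change -7.36, SE 0.12, adjusted p = 5.56e-14). Cebpa, which starts the granulocyte program, fell from 48.8 and 55.3 CPM to 0.0584 and 0.175 CPM, and Irf8, the factor of monocytes and dendritic cells, from 414 and 372 CPM to 1.02 and 0.409 CPM. Gfi1, the paralogue of the erythroid Gfi1b, fell from 32.6 and 26.5 CPM to 0.175 and 0.0584 CPM while Gfi1b rose. Etv6 fell by 2.98, Zeb2 by 1.74 and Runx3 by 1.20 on the log2 scale, and Nfe2l2, the factor of the antioxidant response, rose by 0.95. Among 18 cytokine and pattern receptor genes, 16 were lower and 2 were not called, against 29.6% lower over all genes tested. Csf1r, the M-CSF receptor, remained at 13.96 and 14.6 CPM in MEPs from 199.97 and 182 CPM in CMPs, whereas Csf3r, the G-CSF receptor, fell to 0.409 and 0.526 CPM from 135 and 114 CPM and Csf2rb, the common beta chain, to 0.117 and 0.175 CPM from 78.8 and 87.96 CPM. Csf2rb shares reads with its copy Csf2rb2, so the split between them is uncertain. Tlr4 had no read in MEPs, against 9.19 and 5.33 CPM in CMPs, and was at least 83.1-fold lower. The interferon gamma receptor gene Ifngr1 was at 309 and 293 CPM in CMPs and 307 and 351 CPM in MEPs and was not called.

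Most of the tested genes of other lineages were lower in MEPs. Of 14 basophil, mast cell and eosinophil genes, 9 were tested, 8 of them lower and 1 higher, against 29.6% and 18.0% of all genes tested. Cpa3, the mast cell carboxypeptidase, fell from 238 and 251 CPM to 0.409 and 0.526 CPM, and Mcpt8, a basophil protease, from 33.8 and 30.7 CPM to no read, at least 368-fold lower. The exception was Il1rl1, the receptor for interleukin 33, at 38.5 and 44.4 CPM in CMPs, 83.4 and 103 CPM in MEPs and 2.59 and 5.65 CPM in GMPs. Of 10 antigen presenting and dendritic cell genes, 8 were tested, 7 of them lower and 1 higher, against the same 29.6% and 18.0%. Zbtb46, a zinc-finger gene known from classical dendritic cells, rose from 2.71 and 1.03 CPM to 129 and 128 CPM, though not past the test without MEP replicate 1 (adjusted p = 0.0609) or MEP replicate 2 (adjusted p = 0.057), while Clec9a had no read in MEPs and Cd74 fell from 11.95 and 16.9 CPM to 1.66 and 1.55 CPM. Of 18 lymphoid genes, 10 were tested, 5 of them lower and 5 not called, against 29.6% lower over all genes tested. Ighm was at 255 and 238 CPM in CMPs and 2.89 and 2.28 CPM in MEPs, and Dntt, which adds bases at antigen receptor joints, at 18.01 and 25.97 CPM and 1.17 and 1.46 CPM. Cd79a, Cd3e and Rag1 were each below 0.6 CPM in all 4 libraries and were not tested.

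Genes of DNA replication and mitosis were called higher or not called, most with modest changes. Of 21 replication genes tested, 9 were higher and 12 not called, with a median log2 fold change of 0.55. Of 20 mitosis genes, 8 were higher and 12 not called, with a median of 0.44. Among all genes tested 18.0% were higher and 29.6% lower, with a median of -0.05. Ccne1, cyclin E1, which opens S phase, stood apart with 26.9 and 29.2 CPM in CMPs and 348 and 311 CPM in MEPs (log2 fold change 3.56, SE 0.07). Rrm2, which makes deoxynucleotides, rose from 328 and 319.9 CPM to 1101 and 990.3 CPM, and Cdc6, which loads the replicative helicase, from 149 and 135 CPM to 424 and 437 CPM. Mki67 and Top2a had log2 fold changes of 0.48 and -0.19 and were not called. The D-type cyclins and their kinases did not follow cyclin E: Ccnd2 fell from 344 and 448 CPM to 119 and 98.4 CPM and Cdk6 from 602 and 615 CPM to 267 and 268 CPM, while Ccnd3 and Cdk4 were not called. The call of Ccnd2 was lost without MEP replicate 1 (adjusted p = 0.06) or MEP replicate 2 (adjusted p = 0.0666), and the log2 fold change of Ccnd3, 0.14, was -0.01 without MEP replicate 1. The inhibitors Cdkn1a and Cdkn2d fell from 27.99 and 33.2 and 43.5 and 56.2 CPM to 2.04 and 3.94 and 6.95 and 6.45 CPM, so that of 9 tested genes of that list 4 were lower and none higher, against 29.6% and 18.0% of all genes tested. Of 15 nucleolar genes that assemble ribosomes, 7 were higher and 8 not called, against 18.0% higher over all genes tested. Npm1 and Ncl had log2 fold changes of 0.90 and 0.77. Myc was at 587 and 968 CPM in CMPs and 567 and 567 CPM in MEPs. It was not called, except without CMP replicate 1 (log2 fold change -0.77).

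The largest rises and falls by fitted log2 fold change, listed or not, were taken from genes called, with libraries that did not overlap and a mean of at least 5 CPM in the higher population. Against a population without a read the fitted value depends on the prior count and only a bound is known, so these genes have no order among themselves or against measured changes such as the rise of Sphk1 or the fall of Cd34. Of the 12 rises with the largest fitted values, 11 had no read in CMPs. Trim10, a RING-finger gene of terminal red cell development, was at 39 and 38.1 CPM in MEPs and at least 479-fold higher, and Agtr1a, the angiotensin II receptor type 1a, at 20.2 and 19.2 CPM and at least 245-fold higher. Pkhd1l1, Tspan15, Phyhip, Cd248 and Tac2, the precursor of neurokinin B, were at 16.2 and 18.7, 15.01 and 11.7, 12.8 and 11.9, 9.64 and 7.88 and 6.69 and 4.79 CPM in MEPs, and 6030468B19Rik, Gm44861, Gm12224 and Gm29292 completed the 11. Sh3tc2 had 2 reads in CMPs and 59.2 and 58.2 CPM in MEPs. None of the 12 exceeded 0.2 CPM in GMPs. Across young HSCs, however, Pkhd1l1 stood at 12.3 to 12.8 CPM and Cd248 at 3.74 to 4.65 CPM, with the HSC libraries made and counted separately.

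All of the 12 falls with the largest fitted values had no read in MEPs. The noncoding gene BE692007, which overlaps an exon of Ms4a6c on the opposite strand, was at 79.97 and 70.1 CPM in CMPs, at least 857-fold higher than in MEPs. Beside Mcpt8 stood Dock1, an activator of the GTPase RAC, at 31.3 and 32.1 CPM and at least 362-fold, Cds1, which makes a phospholipid precursor, at 24.7 and 22.99 CPM and at least 272-fold, and Kcnip3, a calcium-binding repressor, at 18.2 and 21.9 CPM and at least 229-fold. Jdp2, St14, Aatk, Lst1, Slc35e4, Gucy1a1 and Mefv, which encodes pyrin, ranged from 11.8 to 17.3 CPM in CMPs on average. Of the 12, all but Gucy1a1 were higher in GMPs than in CMPs by their means. Gucy1a1, a subunit of the nitric oxide receptor, was at 0.0624 and 0.399 CPM in GMPs and 92.6 to 104 CPM in young HSCs. Mean levels of the others in young HSCs, counted separately, ran from 0.0662 CPM (Mcpt8) to 91.3 CPM (Dock1). Lst1 stood at 63.5 CPM there, St14 at 31.3 CPM and Kcnip3 at 29.0 CPM.

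By difference in CPM rather than ratio, a measure that favours long transcripts, the largest rises were those of Car2, Car1, Fth1, Atp5b and Aqp1. Atp5b, a subunit of the mitochondrial ATP synthase, rose from 1668 and 1571 CPM to 2753 and 2784 CPM. The largest falls were those of Mpo, Gm11505, H2afy, Tmsb4x and Lcp1. H2afy, which encodes the histone variant macroH2A1, was at 2127 and 2150.3 CPM in CMPs and 162 and 168 CPM in MEPs (log2 fold change -3.70, SE 0.05, adjusted p = 9.04e-15), and stayed at 2126 and 1973 CPM in GMPs. A pair of abundant genes of the actin cytoskeleton fell further, Tmsb4x (thymosin beta 4, which holds actin monomers) from 1254 and 1264 CPM to 24.8 and 19.04 CPM and Lcp1 (L-plastin, which bundles actin) from 1241 and 1259 CPM to 17.5 and 18.1 CPM.

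Btaf1 (chromosome 19, 36926079 to 37012752, plus strand), the gene whose short variant the study followed, was at 172 and 186 CPM in CMPs, 406 and 424 CPM in MEPs, 170.2 and 178 CPM in GMPs and 68.4 to 88.7 CPM in young HSCs. The 2 MEP libraries were the highest of the 6 progenitor libraries, and CMPs and GMPs overlapped. The HSC libraries were made and counted separately, so their levels are a description only. MEPs differed from CMPs by 1.21 on the log2 scale (SE 0.05, edgeR adjusted p = 5.73e-10). In the fit with all 3 progenitors, MEPs differed from GMPs by 1.25 (adjusted p = 1.87e-10) and GMPs from CMPs by -0.01 (adjusted p = 0.877), comparisons that share libraries with each other. Gene-level counts do not separate the short variant from the full-length transcript. Tbp, whose product BTAF1 acts on, was at 103 and 108 CPM in CMPs and 139 and 133 CPM in MEPs, and Ide, which neighbours Btaf1, at 512 and 464 CPM and 486 and 480.1 CPM, and neither was called. The log2 fold change of Ide was -0.02, and 0.06 without CMP replicate 1.

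GMPs gave the other exit from CMPs, and the same fit gave each contrast for the markers. Klf1 was higher in MEPs than in GMPs by 8.74 and lower in GMPs than in CMPs by 5.18 on the log2 scale, and Epor by 8.71 and 5.29. Gata2 was not separated between MEPs and GMPs, with a log2 difference of -0.10 (adjusted p = 0.868), although it was lower in GMPs than in CMPs by 2.98 (adjusted p = 0.0161). Pf4 was lower in GMPs than in CMPs by 4.83 (adjusted p = 0.0104), and its MEP to GMP difference of -2.46 did not pass the test (adjusted p = 0.111). Il1rl1 was higher in MEPs than in GMPs by 4.50 (adjusted p = 0.00017). Tfrc and Slc40a1 were higher than in CMPs in GMPs too, by 1.13 and 1.34, and higher again in MEPs than in GMPs by 1.84 and 2.84.

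The 2 CMP libraries differed in genes that respond within minutes to handling or cytokines. Of 15 stress response genes of dissociated cells, 12 were tested, 9 were lower in MEPs, 1 was higher and 2 were not called (against 18.0% higher and 29.6% lower over all genes tested), and their summed level was 225 CPM in CMP replicate 1, 342 CPM in CMP replicate 2 and 163 to 172 CPM in MEPs. Egr1 was at 6.37 and 18.8 CPM in the CMP libraries and 1.96 and 2.51 CPM in MEPs, Zfp36 at 12.7 and 35.8 CPM and 1.52 and 2.04 CPM, and Junb, which was not called, at 39.2 and 81.2 CPM and 42.5 and 41.2 CPM. Replicate 2 was the higher CMP library for each of them, as it was for Pim1, Socs3 and Myc above, and its part in those values was not tested. Jund was higher in MEPs, at 66.5 and 59.1 CPM against 20.9 and 31.6 CPM. Calls in this list were fragile. Egr1 and Zfp36, with log2 fold changes of -2.49 and -3.76, lost theirs without MEP replicate 1 (-2.32 and -3.56) or MEP replicate 2 (-2.68 and -3.99). Both also lost them with no filter on low counts (adjusted p = 0.162 and 0.0874), with limma-voom (0.107 and 0.126) and with halved counts (0.0998 and 0.0639). Jund lost its call without MEP replicate 1 (log2 fold change 1.18, against 1.26). Junb was called lower without CMP replicate 1 (log2 fold change -0.95) and had a log2 fold change of 0.09 without CMP replicate 2.

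The promoters of genes that changed were also looked up in young HSCs, using the H3K4me3, H3K27ac and H3K27me3 peaks deposited for those cells. H3K4me3 and H3K27ac mark active promoters, H3K27me3 marks repression by Polycomb, and a promoter with both H3K4me3 and H3K27me3 is called bivalent. Among 12440 protein-coding genes tested, 89.2% had a promoter peak of H3K4me3, 84.0% of H3K27ac and 14.1% of H3K27me3 in young HSCs. The 184 protein-coding genes that rose more than 16-fold in MEPs stood apart, with 70.7%, 50.0% and 68.5%, and 52.2% of them carried both H3K4me3 and H3K27me3 against 11.8% of all tested. For the 1110 that fell more than 16-fold the shares were 81.3%, 72.9% and 30.0%, with 24.2% carrying both. Genes not called had H3K27me3 in 8.44% of cases. The levels in young HSCs moved with these shares. The median was 2.46 CPM for the genes that rose more than 16-fold, 13.7 CPM for those that fell more than 16-fold and 43.4 CPM for those not called, and 35.3%, 11.3% and 4.37% of them were below 1 CPM in HSCs. The part of these levels in the shares was not tested. Of the genes whose promoters are printed above, Klf1 and Epor had all 3 marks in young HSCs, with H3K4me3 signals of 18.4 and 17.9 and 13.3 and 14.6 and H3K27me3 signals of 0.518 and 0.543 and 1.29 and 1.32 in the 2 young libraries. Ermap, Rhd and Mpo had a promoter peak of H3K27me3 without H3K4me3, Cd34, Itga2b and Pf4 had H3K4me3 and H3K27ac without H3K27me3, and no promoter peak of the 3 marks was listed under Gata1. These are peak shares in another cell type, with no test, and the signals are in the authors' units, normalized to a fixed number of reads.

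**Figure D5:**
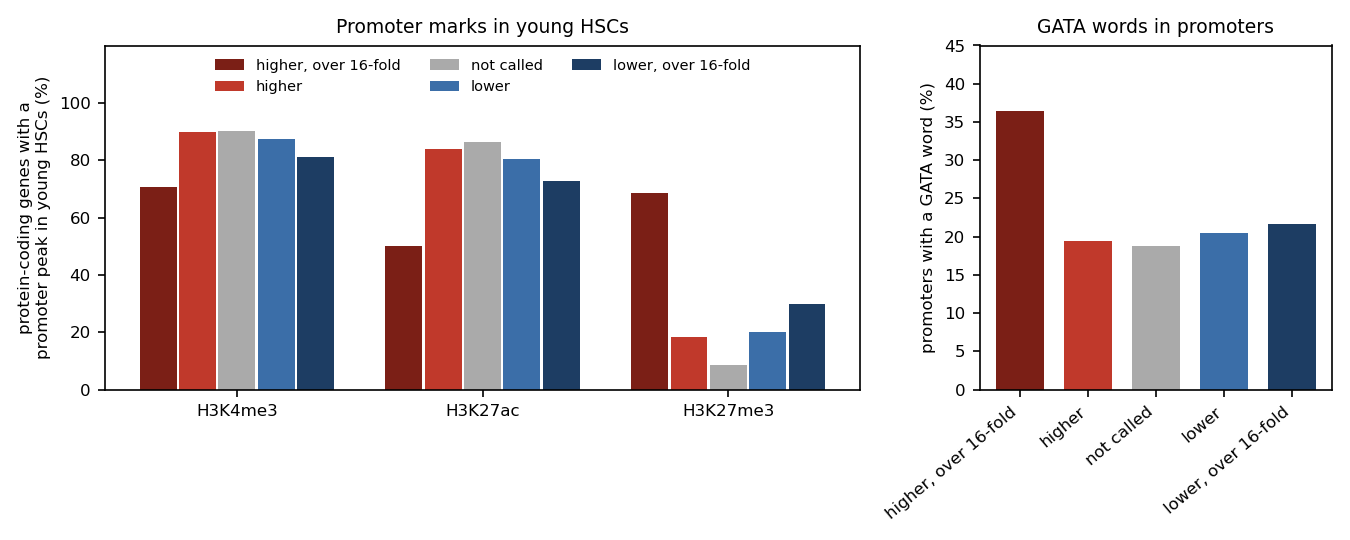
On the left, bars give the percent of protein-coding genes with a promoter peak of H3K4me3, H3K27ac or H3K27me3 in young HSCs, for genes that rose in MEPs more than 16-fold (184), that rose (2374), were not called (5975), fell (4091) or fell more than 16-fold (1110), the classes that rose or fell including the more extreme ones. On the right, bars give the percent of 300-base promoters with a GATA word in the same classes (118, 1660, 4233, 2748 and 735 promoters). H3K27me3 in HSCs and GATA words both stand highest for genes that rose more than 16-fold.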

How the data were processed

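According to the methods and the labels, the authors trimmed reads, aligned them to mm10 with STAR, summed them over GENCODE M22 genes with featureCounts and deposited the raw counts. The sources used here name no STAR version and no setting for strand or multi-mapping. The labels name both polyA RNA and a total RNA kit for the progenitors. Among counts from 1 to 10, 75.0% to 77.3% were even in the 6 progenitor libraries and 41.2% to 43.1% in young HSCs, so most progenitor fragments appear as 2 reads. The floor was therefore 3 fragments, 6 reads over a group, or 0.0876 CPM in MEPs, and ratios on fewer reads carry 95% exact counting intervals on halved counts. Both cover counting error only, since reads carry no molecular identifiers.

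Counts were filtered with filterByExpr, scaled with TMM and tested with edgeR 4.0.16 (robust quasi-likelihood, R 4.3.3), CMP and MEP libraries alone, then with GMPs for the 3-way contrasts. On simulated data with 17163 genes, 98% of 200 genes changed 2-fold between MEP and CMP were recovered, with 20 false calls. The 200 were drawn from genes above 5 CPM on average, with rises and falls in equal number. Changes in genes at lower levels, or in as many genes as were called here, were not simulated. Gene places and exon lengths came from GENCODE M21 (17503 of 17696 genes matched), promoters from RefSeq. Exon length was that of all annotated exons of a gene merged. It can exceed the length of the transcript expressed and so lower the CPM per kb and its rank, to a degree that differs between genes. Genes that overlap another gene can share reads with it or lose them, on either strand where strand was not used. For histone marks, the authors deposited a signal per peak, scaled to a fixed read number, and fold change and log2 fold change columns of old against young HSCs, which were not used. Peaks annotated as TSS-proximal and present in young HSCs were counted by gene. In all, 8 columns of per-sample values could not be tied to a listed sample and were not used.

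Named genes were the 12 largest rises and falls by fitted log2 fold change and the 5 largest by CPM difference, Btaf1, Klf1, Car1 and Ermap, and up to 10 members of each of 22 lists, called ones first, with those that define the list. Some genes that this rule names are not reported here. The members and lists were chosen with earlier results of these data known. Alternatives were DESeq2 1.42.0, its size factors, limma-voom 3.58.1, other filters and thresholds, GMPs in the fit, a replicate block, and each library left out, where the lone library is assumed to vary like the others. Halved counts were added after seeing the data.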

Additional observations from a re-analysis of the deposited data

How the results depend on the processing

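At a fold change above 2, 1697 genes were higher in MEPs, and without a fold threshold 5242, against 3179 at 1.5-fold. Every other alternative kept the counts of genes higher or lower in MEPs within 1.5 times. Leaving out 1 library at a time gave 2767 to 3140 higher and 4665 to 5348 lower genes, and 89 to 92 higher and 140 to 147 lower among the listed genes. DESeq2 gave 2893 higher and 4902 lower genes, limma-voom 3247 and 5280, DESeq2's size factors 3199 and 5220, halved counts 3130 and 4890, and no gene changed direction between called groups under any of them. The replicate numbers are not stated to mark pairs, and the deviations of CMP and MEP libraries with the same number correlated at r = 0.058. A fit with the replicate block gave 3062 higher and 5126 lower genes. Under the block Elane lost its call (adjusted p = 0.0542) and Socs3 and Chil3 gained one.

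Of the 2282 values of 176 named genes under an alternative, 2229 kept their direction and their side of the thresholds. Among genes not called, the sign reversed for Slc25a37, whose log2 fold change ran from -0.13 to 0.0048 as single libraries were left out, for Ccnd3 (-0.011 to 0.28), for Ide (-0.0935 to 0.059, and 0.0040 with GMPs in the fit) and for Junb (-0.95 to 0.086), and the cause was not tested. With 2 libraries per population no exact permutation test can pass a threshold of 0.05, and genes near the floor cannot be ranked at this depth.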
